A study of Mus musculus with 24 samples.

Results

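Hippocampal expression of 10 genes of the brain endothelium and the blood-brain barrier was followed in neonatal mice given morphine: Abcb1a, Abcg2, Cldn5, Ocln, Tjp1, Slc2a1, Pecam1, Kdr, Flt1 and Tek. The genes were chosen by name. Every non-control probe that carried 1 of these names was used, which gave 13 of 55681 probesets, from 23 of the 62976 spots on each array, and 10 of 36163 gene names. A probeset is all spots of 1 probe on the array. Ocln, Kdr and Flt1 had 2 probesets each. The first probe is the one with the higher mean level over all arrays, and it stands for its gene in counts of genes.

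Hippocampal RNA was hybridized to 15 single-color Agilent arrays, with 5 male C57BL/6 pups per group and a different pup on each array. Controls (Con) were untreated and housed normally with minimal handling. The MS2 and MS5 groups received morphine at 2 and 5 mg/kg, and both also underwent stress: removal from the dam to a warmer, and apnea simulated with nitrogen followed by oxygen. Treatment began at postnatal day 5, all pups were killed at day 9, and treated pups spent nights in the home cage with control littermates. Morphine and stress cannot be told apart in a contrast with controls. By treatment, MS5 and MS2 differed in dose alone because both groups carried the stress. Their arrays also differed in markers of tissue and of sex, as given below, so a difference between them need not be one of dose. The tissue was bulk hippocampus, so fewer endothelial cells and less RNA per cell cannot be told apart.

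Brain capillaries form a barrier because their endothelial cells are sealed to each other by tight junctions and pump many drugs, opioids among them, back into blood. Cldn5 (claudin 5) and Ocln (occludin) are membrane proteins of these junctions, and Tjp1 (ZO-1) ties them to the cytoskeleton. Abcb1a (P-glycoprotein) and Abcg2 (breast cancer resistance protein) are efflux pumps, and Slc2a1 (GLUT1) carries glucose into brain. Pecam1 marks endothelium, Kdr and Flt1 are receptors for vascular endothelial growth factor (VEGF), and Tek is the receptor for angiopoietins. Vessels of the rodent hippocampus are still growing in the first postnatal weeks.

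All 13 probesets were well above background on all 15 arrays, and no spot on any array was saturated. Median spot signal was 121 to 154 on 14 arrays and 58.2 on the array of MS2 replicate 5. Other arrays stood apart in their makeup. MS5 replicate 9 was labelled male, yet carried Xist, an RNA of the inactive X chromosome, at 11.34 (log2), against at most 6.08 on the other 14 arrays. On MS2 replicate 4 the mean level of 6 markers of hippocampal neurons was 11.04 (log2), below 12.92 to 13.37 on the other arrays, and that of 6 markers of hypothalamus and thalamus was 11.18, above 7.21 to 9.54. The mean of 14 choroid plexus markers was 8.65 on MS5 replicate 14 and 9.53 on MS5 replicate 9, against 10.86 to 12.09 elsewhere. Counts are given below with and without MS2 replicates 4 and 5 and MS5 replicates 9 and 14, which are called the 4 arrays that stand apart. MS5 replicates 8 and 12 are not among them. Their hypothalamus and thalamus markers were at a mean of 9.54 and 9.26, against at most 8.19 on controls.

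The probe sequences of the 3 genes with 2 probesets are shown because the results turn on whether both probes of a gene moved alike. Each line gives the first 30 of the probe's 60 bases, 5' to 3', and positions are those of the array design on the mm9 build, all on the minus strand. The Ocln probes lay at chr13:101268529-101268588 and chr13:101267384-101267443, 1145 bases apart. The Kdr probes lay at chr5:76330395-76330454 and chr5:76329309-76329368, 1086 bases apart. The Flt1 probes lay 92185 bases apart, at chr5:148373791-148373850 and chr5:148465976-148466035. The second Flt1 probe was designed to the transcript AK005502 and the others to RefSeq transcripts of their genes.
Ocln first probe: aaatggcttttgataattgactgggctgaa
Ocln second probe: cccaatttggtctgttttagctgaaaatgt
Kdr first probe: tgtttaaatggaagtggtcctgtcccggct
Kdr second probe: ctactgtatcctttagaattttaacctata
Flt1 first probe: aagtaaagaaaagctatcgggattctctgg
Flt1 second probe: tccctatcccaactacacattcaatcttct
A run of 16 bases shared with a probe of another gene occurred in 1 of the 13 probes, the second Kdr probe, which shared it with a probe of C030034I22Rik. The first Kdr probe shared such a run, on either strand, with 7 of 32851 RefSeq promoter windows (0.0213%).

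Of the 10 genes, Ocln was the 1 that was lower in both treated groups at an unadjusted p under 0.05, and most others differed little. At an unadjusted p under 0.05, 1 of 10 genes differed between MS2 and Con (Ocln), against 4.17% of all probesets. Between MS5 and Con 2 of 10 differed (Ocln lower, and Kdr higher on its first probe but not on its second), against 3.91%. None of the 10 differed between MS5 and MS2, against 3.97%, and 1 of 10 (Ocln) differed between both treated groups together and Con, against 4.14%. Over 1.5-fold with an unadjusted p under 0.05, which was the threshold of the study, 0 of 10 differed in any of these contrasts, against 0.0233%, 0.228%, 0.129% and 0.0539% of all probesets. With Benjamini-Hochberg adjustment over all probesets by limma, 0 members and 0% of all probesets passed 0.05 in any contrast, and the smallest adjusted p of any member was 0.97. No member separated its groups: 0 of 13 probesets had arrays that did not overlap with controls, against 0.699% of all probesets for MS2 and 0.832% for MS5. The members' median difference was 0.01 for MS2 and 0.02 for MS5 (log2), and that of all probesets was -0.002 and 0. The contrasts with controls share the 5 control arrays and are not independent of each other.

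**Figure D1:**
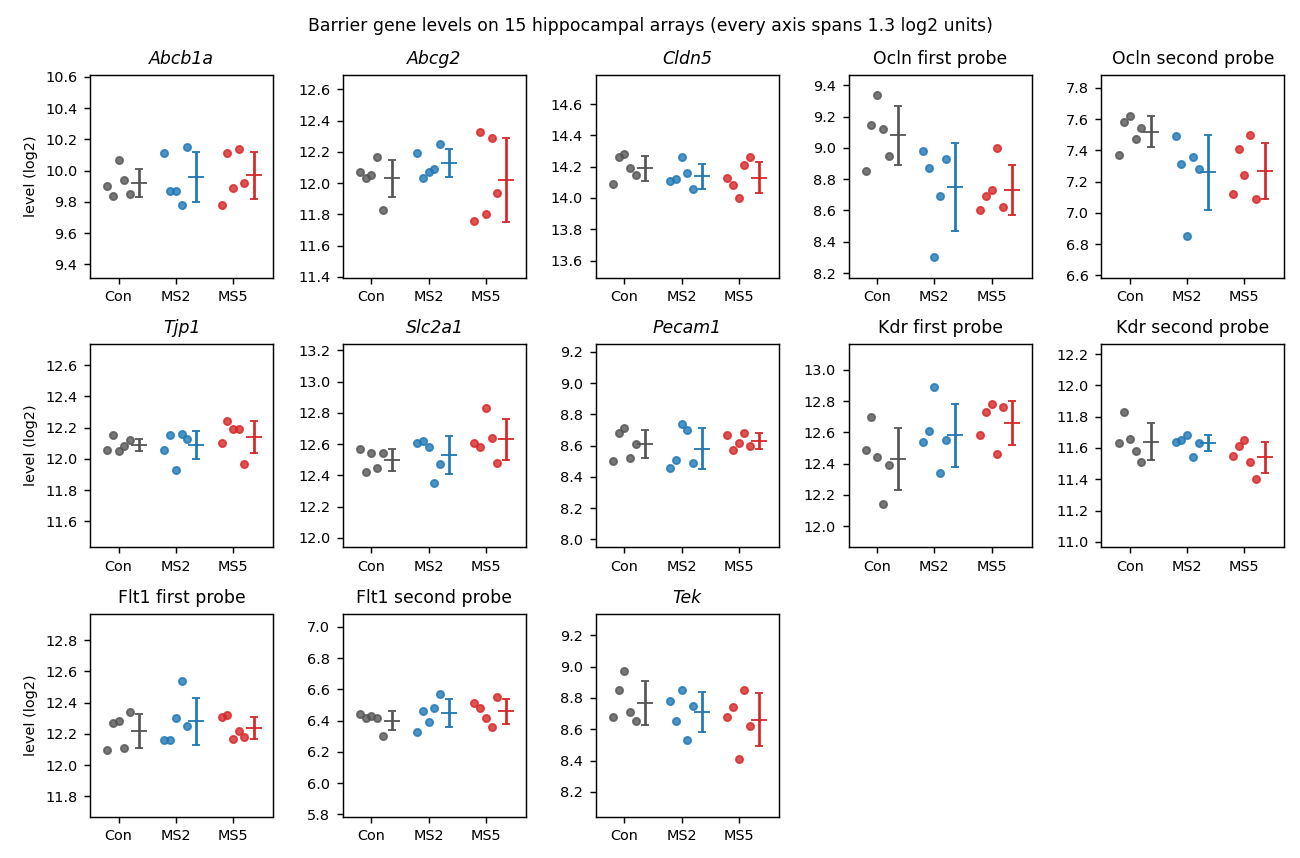
Level (log2) of each of the 13 probesets on the 5 arrays of each group (points), with the group mean and SD beside them; the height of every axis spans the same range, while its position differs between panels. Both Ocln panels sit lower in MS2 and MS5 than in Con, with means of 9.08, 8.75 and 8.73 for the first probe, and every panel shows overlapping groups.

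The precision was enough to place bounds on most members. For 9 of 10 genes the 95% interval of the difference lay within 1.5-fold in either direction, both for MS2 and for MS5 against Con, and the exception was Ocln in both. Between MS5 and MS2, and for both treated groups together against Con, the interval lay within 1.5-fold for 10 of 10 genes. The SD among the arrays of a group was 0.04 to 0.28 (log2) over the 13 probesets.

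Abcb1a, the main drug pump of the mouse barrier, was at 9.90, 9.84, 10.07, 9.94 and 9.85 (log2 level) on control replicates 15 to 19, at 10.11, 9.87, 9.87, 9.78 and 10.15 on MS2 replicates 1, 3, 4, 5 and 7, and at 9.78, 10.11, 9.89, 10.14 and 9.92 on MS5 replicates 8, 9, 12, 13 and 14. High and low arrays occurred in all 3 groups. The difference from controls was 0.03 for MS2 (95% interval -0.15 to 0.21, exact permutation p = 0.738) and 0.05 for MS5 (-0.13 to 0.23, exact permutation p = 0.595). Both intervals allow a rise of at most 1.17-fold.

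Abcg2, whose product shares many substrates with P-glycoprotein, was at 12.07, 12.03, 12.05, 12.17 and 11.83 on the control arrays, in the same order of replicates. It was at 12.19, 12.03, 12.07, 12.09 and 12.25 on the MS2 arrays and at 11.76, 12.33, 11.80, 12.29 and 11.94 on the MS5 arrays. The MS5 arrays spread on both sides of the controls, with replicates 9 and 13 above the highest and replicates 8 and 12 below the lowest control array. Their SD was 0.27 against 0.12 in controls, and the mean differed by -0.01 (95% interval -0.24 to 0.22, exact permutation p = 0.929). MS2 differed from controls by 0.09 (-0.13 to 0.32, exact permutation p = 0.19) and MS5 from MS2 by -0.10 (-0.33 to 0.12, exact permutation p = 0.429). MS5 replicates 8, 12 and 14 had the lowest levels of their group for Abcg2 and for Abcb1a. On them the mean level of the hypothalamus and thalamus markers was 9.54, 9.26 and 9.43, and on replicates 9 and 13 it was 7.74 and 8.01. The part of these markers in the spread was not tested.

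Among the junction genes, Cldn5 and Tjp1 showed no difference past the test, and their intervals were among the narrowest. Cldn5, the dominant claudin of brain endothelium, was at 14.09, 14.26, 14.28, 14.19 and 14.15 on controls, at 14.11, 14.12, 14.26, 14.16 and 14.06 on MS2 arrays and at 14.13, 14.08, 14.00, 14.21 and 14.26 on MS5 arrays. The groups overlapped, and the difference was -0.05 for MS2 (95% interval -0.17 to 0.07, exact permutation p = 0.333) and -0.06 for MS5 (-0.18 to 0.06, exact permutation p = 0.31). The level of Tjp1 ranged from 12.05 to 12.15 on controls. In MS2 it lay between 11.93 and 12.16, and in MS5 between 11.97 and 12.24. Its difference was -0.01 for MS2 (-0.12 to 0.11) and 0.04 for MS5 (-0.07 to 0.16), with exact permutation p of 0.921 and 0.421.

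Ocln was the junction gene that differed. On its first probe the controls were at 8.85, 9.15, 9.34, 9.12 and 8.95 (mean 9.08 ± 0.19, SD, n = 5). The MS2 arrays were at 8.98, 8.87, 8.30, 8.69 and 8.93 (mean 8.75 ± 0.28), and the MS5 arrays at 8.60, 8.69, 8.73, 9.00 and 8.62 (mean 8.73 ± 0.16). Of the 5 MS5 arrays 4 lay below the lowest control array, as did 2 of the 5 MS2 arrays, and the lowest array of all was MS2 replicate 4. The difference was -0.33 for MS2 (95% interval -0.60 to -0.06, limma p = 0.0196, exact permutation p = 0.0556) and -0.36 for MS5 (-0.62 to -0.09, limma p = 0.0133, exact permutation p = 0.0238). These are 0.795-fold and 0.782-fold of the control level. For both treated groups together it was -0.34 (-0.58 to -0.11, limma p = 0.00695, adjusted p = 0.988, exact permutation p = 0.00799). MS5 and MS2 differed by -0.02 (-0.29 to 0.24, exact permutation p = 0.913).

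The second Ocln probe moved with the first. Controls were at 7.37, 7.58, 7.62, 7.47 and 7.54, MS2 arrays at 7.49, 7.31, 6.85, 7.36 and 7.28, and MS5 arrays at 7.12, 7.41, 7.24, 7.50 and 7.09. Again MS2 replicate 4 was lowest, and 4 MS2 and 3 MS5 arrays lay below every control. The difference was -0.26 for MS2 (95% interval -0.49 to -0.03, exact permutation p = 0.0317) and -0.24 for MS5 (-0.47 to -0.02, exact permutation p = 0.0397). Over the 15 arrays the 2 probes correlated at r = 0.90 (Spearman rho = 0.87), a description of probes that share their RNA. The distance between the probes did not differ past the test between MS5 and Con (change of -0.11, exact permutation p = 0.183).

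**Figure D2:**
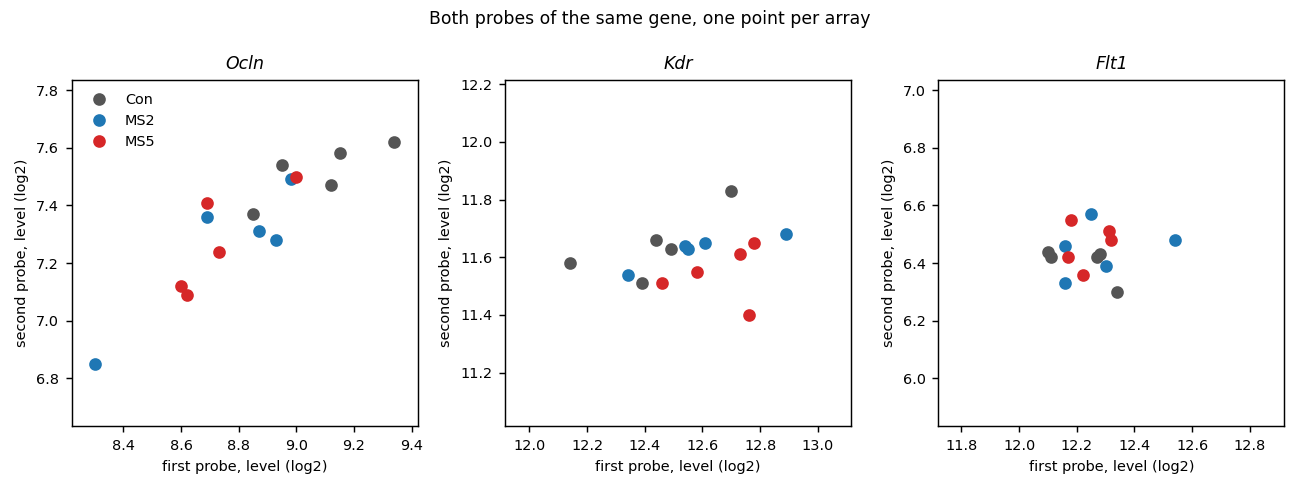
Level (log2) on the first probe (x axis) against the second probe (y axis) of Ocln, Kdr and Flt1, with 1 point per array colored by group. The Ocln points lie along a line (r = 0.90), those of Kdr (r = 0.25) and Flt1 (r = 0.11) do not, and the MS5 points of Kdr sit to the right of and below most controls.

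The Ocln difference depended on single arrays in MS2 and held without any 1 array in MS5. Leaving out each of the 15 arrays in turn, it ranged from -0.39 to -0.22 for MS2, and it no longer passed an unadjusted p under 0.05 without MS2 replicate 4 (-0.22) or without control replicate 17 (-0.27). For MS5 it ranged from -0.42 to -0.29, and passed in 15 of 15. Without the 4 arrays that stand apart it was -0.16 for MS2, which did not pass, and -0.31 for MS5, which did. The MS5 arrays of that fit still held replicates 8 and 12, with hypothalamus and thalamus levels of 9.54 and 9.26. The arrays lay on 2 slides that held all 3 groups. Within slide 1 the difference was -0.18 for MS2 and -0.31 for MS5, neither past that p, and within slide 2 it was -0.55 and -0.37, both past it.

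Markers of neighboring tissue differed between the arrays, and their values are given beside those of Ocln. The 4 arrays with a mean level of hypothalamus and thalamus markers above 9 (log2), MS2 replicate 4 and MS5 replicates 8, 12 and 14, had Ocln at 8.30, 8.60, 8.73 and 8.62 on the first probe, and the other 11 arrays had it at 8.69 to 9.34. Over those 11 arrays Ocln and the markers correlated at r = -0.30 (permutation p = 0.378, adjusted 0.868 over 20 relations; Spearman rho = -0.04, p = 0.908), and at 0.16 without the 2 arrays farthest from the median. Over the 13 arrays with a choroid plexus level above 10 (log2), Ocln and the choroid plexus markers correlated at r = 0.42 (permutation p = 0.162, adjusted 0.868; Spearman rho = 0.45, p = 0.128), and at 0.02 without the 2 farthest arrays. Neither relation passed the test. The arrays with the highest hypothalamus and thalamus levels, or the lowest choroid plexus levels, were left out of it. It therefore cannot show whether Ocln varied with these markers over all 15 arrays. With the hypothalamus and thalamus level as a covariate the difference was -0.21 for MS2, past an unadjusted p under 0.05, and -0.18 for MS5, not past it. The summed level of the 6 markers was 1070 to 2820 on control, 1210 to 22000 on MS2 and 1570 to 8830 on MS5 arrays, and 3 of 6 (Avp, Trh and Oxt) were higher in MS5 than in Con at an unadjusted p under 0.05, none in MS2. Of all probesets 3.91% were called in MS5 and 4.17% in MS2, in either direction. Of the 14 choroid plexus markers, 12 were lower in MS5 and 0 in MS2, against 2.44% of all probesets called lower in MS5. Their summed level was 239000 to 362000 on control, 253000 to 328000 on MS2 and 12800 to 294000 on MS5 arrays. The paper lists Aqp1, Calml4, Cldn2, F5, Folr1, Kl, Msx1 and Slc4a5 as lower in MS5 on these arrays, and Avp and Trh as higher. The calls of both marker lists were therefore largely fixed in advance and test nothing, and the levels only describe the arrays. With the choroid plexus level as a covariate the Ocln difference was -0.32 for MS2, past an unadjusted p under 0.05, and -0.26 for MS5, not past it. All of these markers but Pmch were well above background on every array, and Pmch was so on 13 of 15.

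**Figure D3:**
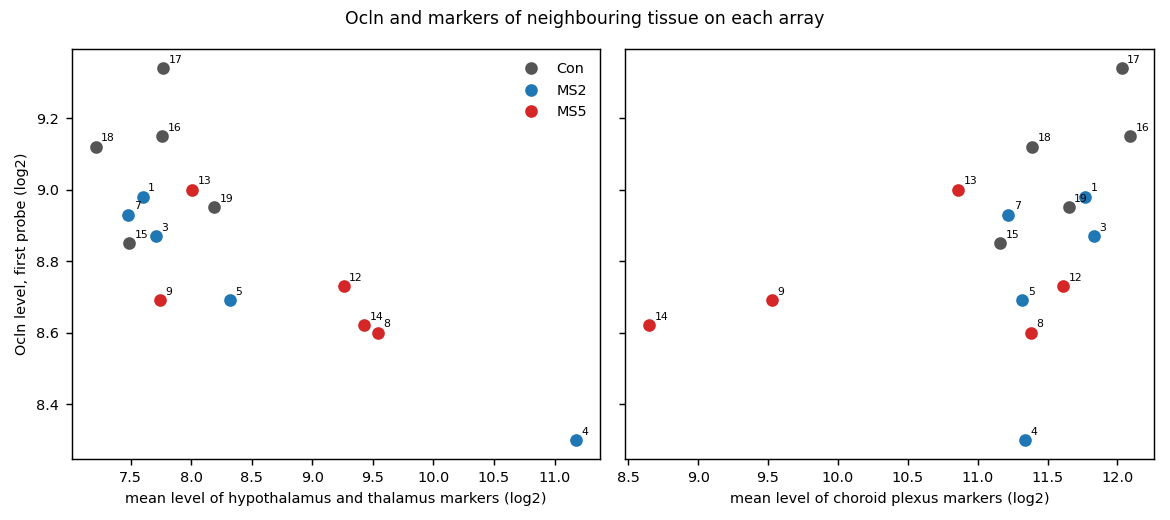
Ocln level on the first probe (y axis, log2) against the mean level of 6 hypothalamus and thalamus markers (left, log2) and of 14 choroid plexus markers (right, log2), with 1 point per array, colored by group and numbered by replicate. MS2 replicate 4 lies lowest, at 8.30 with hypothalamic markers at 11.18, and MS5 replicates 9 and 14 lie far left on the choroid plexus axis at 9.53 and 8.65.

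Slc2a1, the glucose carrier, was at 12.57, 12.42, 12.54, 12.45 and 12.54 on controls, at 12.61, 12.62, 12.58, 12.35 and 12.47 on MS2 arrays and at 12.61, 12.58, 12.83, 12.64 and 12.48 on MS5 arrays. Of the MS5 arrays 4 lay above every control, and 1 of them, replicate 12, stood highest. The difference was 0.13 for MS5 (95% interval -0.01 to 0.27, limma p = 0.0752, exact permutation p = 0.0714) and 0.02 for MS2 (-0.12 to 0.16, exact permutation p = 0.683). It passed an unadjusted p under 0.05 in MS5 without the 4 arrays that stand apart, at 0.19, and with the choroid plexus level as a covariate, at 0.23. It did not pass with the hypothalamus and thalamus level as a covariate, at 0.11, and passed in 1 of 15 fits that each left out an array, which ranged from 0.08 to 0.16.

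The probes of Kdr, the main receptor for VEGF on endothelium, disagreed. On the first probe, a single spot, controls were at 12.49, 12.70, 12.44, 12.14 and 12.39, MS2 arrays at 12.54, 12.61, 12.89, 12.34 and 12.55, and MS5 arrays at 12.58, 12.73, 12.78, 12.46 and 12.76. The MS5 arrays overlapped the controls, with 3 of 5 above the highest. The difference was 0.23 for MS5 (95% interval 0.00 to 0.46, limma p = 0.0462, exact permutation p = 0.0556) and 0.15 for MS2 (-0.07 to 0.38, exact permutation p = 0.262). Leaving out each array in turn, the MS5 difference ranged from 0.16 to 0.30 and passed an unadjusted p under 0.05 in 5 of 15 fits. It also did not pass without the 4 arrays that stand apart (0.18) or with the choroid plexus (0.22) or the hypothalamus and thalamus level (0.13) as a covariate.

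The second Kdr probe was printed in 10 spots on each array. Its controls were at 11.63, 11.83, 11.66, 11.58 and 11.51, MS2 arrays at 11.64, 11.65, 11.68, 11.54 and 11.63, and MS5 arrays at 11.55, 11.61, 11.65, 11.51 and 11.40. Here the MS5 mean was the lowest of the 3, with a difference from controls of -0.10 (95% interval -0.23 to 0.03, exact permutation p = 0.206), and MS2 differed by -0.01 (-0.14 to 0.11). The SD among the 10 spots of an array had a median of 0.13, and the SD of their means between arrays of a group was 0.09. The distance between the probes was wider in MS5 than in Con on every array, 0.95 to 1.36 against 0.56 to 0.88, a change of 0.33 with an exact permutation p of 0.00794, the smallest that 5 arrays against 5 can give. This pair was singled out after its values were seen. Averaged over both probes, the Kdr difference between MS5 and Con was 0.07 and did not pass, so no direction is given for the gene.

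Flt1, the second VEGF receptor, was at 12.10, 12.27, 12.28, 12.11 and 12.34 on controls on its first probe, at 12.16, 12.16, 12.30, 12.54 and 12.25 on MS2 arrays and at 12.31, 12.32, 12.17, 12.22 and 12.18 on MS5 arrays. The groups overlapped, and the difference was 0.06 for MS2 (95% interval -0.09 to 0.21, exact permutation p = 0.5) and 0.02 for MS5 (-0.13 to 0.17, exact permutation p = 0.69). On the second probe the differences were 0.04 (-0.07 to 0.15) and 0.06 (-0.05 to 0.17), with exact permutation p of 0.421 and 0.222.

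Tek, the angiopoietin receptor, ranged from 8.65 to 8.97 on controls. In MS2 it lay between 8.53 and 8.85, and in MS5 between 8.41 and 8.85. It differed by -0.06 in MS2 (95% interval -0.24 to 0.13, exact permutation p = 0.508) and by -0.11 in MS5 (-0.30 to 0.07, exact permutation p = 0.294). Pecam1, an adhesion molecule at endothelial contacts, ranged from 8.50 to 8.71, from 8.46 to 8.74 and from 8.57 to 8.68 in the same order. It differed by -0.03 in MS2 (-0.15 to 0.10, exact permutation p = 0.722) and by 0.02 in MS5 (-0.11 to 0.15, exact permutation p = 0.659).

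**Figure D4:**
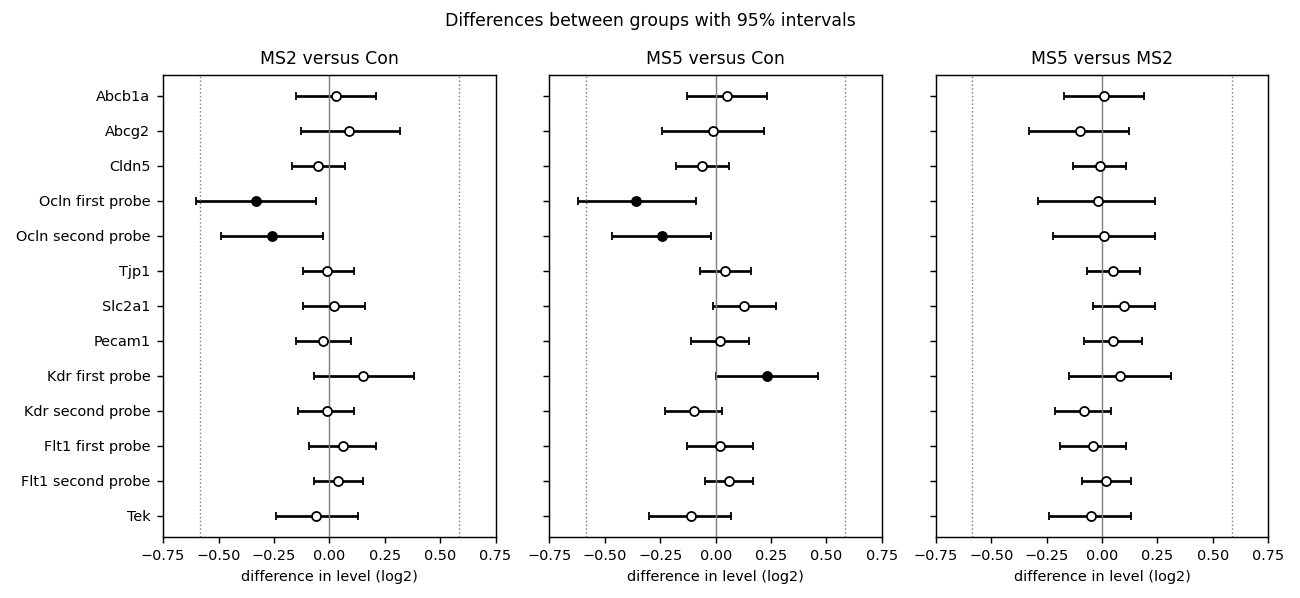
Difference in level (x axis, log2) between the named groups for each of the 13 probesets, with its 95% interval; filled points passed an unadjusted p under 0.05 and dotted lines mark 1.5-fold. Both Ocln probes lie left of 0 in MS2 and in MS5, the Kdr probes lie on opposite sides of 0 in MS5 at 0.23 and -0.10, and no point is filled between MS5 and MS2.

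The members were correlated pair by pair over the 15 arrays. Of 45 pairs of genes 6 had an unadjusted permutation p under 0.05 for Pearson's r and 0 passed after Benjamini-Hochberg adjustment over the pairs, with r from -0.59 to 0.74 and a median of -0.03. The highest was that of the efflux pumps Abcb1a and Abcg2, with r = 0.74 (permutation p = 0.00192, adjusted 0.0864) and Spearman rho = 0.70 (permutation p = 0.00475, adjusted 0.191). It was 0.64 without the 2 arrays farthest from the Abcb1a median, 0.77 with group means removed, and 0.84 and 0.57 within slides 1 and 2. The lowest was that of Ocln and Kdr, at r = -0.59 on their first probes. The 2 probes of the same gene correlated at r = 0.90 for Ocln, but at 0.25 for Kdr and 0.11 for Flt1. Low r between genes therefore cannot show that the genes varied separately.

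The rest of the vascular and barrier program was read from 7 lists with 89 other genes: efflux pumps, uptake carriers, junction genes, endothelial identity, VEGF and angiopoietin signaling, Wnt and Norrin signaling, and caveolae with markers of leaky endothelium. In MS2 2 of 89 differed from Con at an unadjusted p under 0.05, both lower (2.25%, against 4.17% of all probesets). That count was not stable: it was 10, all lower, on slide 2 alone, 3 on slide 1 alone, 6 with array weights and with the mean over probesets of a gene, and 5 with the slide as a block. It was 6 without MS2 replicate 5, 4 without MS2 replicate 7 or control replicate 15, and 1 without control replicate 16 or 17 or MS5 replicate 8, 12 or 14. In MS5 15 were lower and 1 higher, 18% of the lists against 3.91%. The 15 made 16.9% of the lists, against 2.44% of all probesets called lower in that contrast. The 2 sets are unlike. The lists hold 1 probeset per gene, the one with the highest mean level. All but Sele were well above background on every array, which was not required of all probesets. The lists were also chosen with earlier results of these data known. Between MS5 and MS2, groups that share the stress, 11 of the 89 were lower and 1 higher (13.5%, against 3.97%). The arrays of these groups also differed in makeup, with a median of -1.09 (log2) over the 14 choroid plexus markers. Whether dose or makeup underlies this count was not tested, and no other fit of it is given. None of the 89 passed 1.5-fold or an adjusted p under 0.05, and the median difference was -0.01 in MS2 and -0.05 in MS5. Without the 4 arrays that stand apart, MS5 gave 16 lower and 4 higher of 89. With the choroid plexus level as a covariate it gave 7 lower and 2 higher, and with the hypothalamus and thalamus level 10 lower and 2 higher. It gave 7 lower and 1 higher with the scanner's processed signal, 5 lower on slide 2 alone, and 12 lower and 4 higher on slide 1 alone. Without control replicate 16 it gave 9 lower and 1 higher, and without control replicate 17 8 lower and 2 higher. The shares of all probesets above belong to the main fit, and none is given for these other fits.

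**Figure D5:**
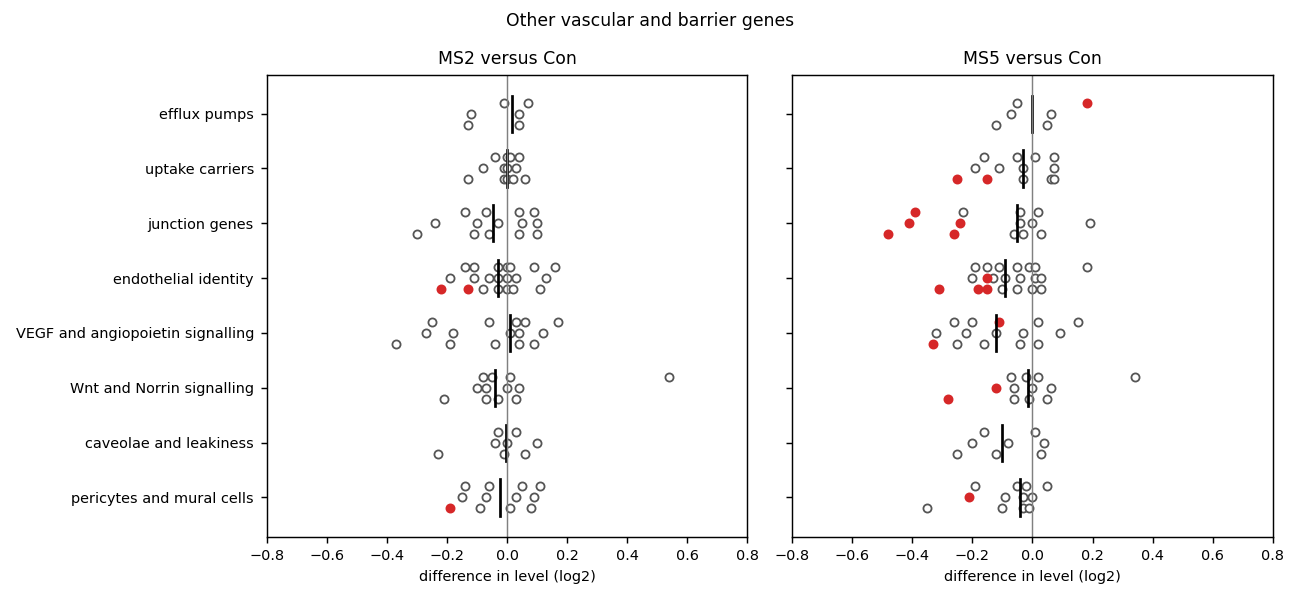
Difference from Con (x axis, log2) of each gene of the 7 vascular and barrier lists and of the pericyte list, for MS2 (left) and MS5 (right); red points passed an unadjusted p under 0.05 and black bars are list medians. Red points lie left of 0 in MS5 except Abcc5 among the efflux pumps at 0.18, and the junction genes reach -0.48.

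Of the 14 other junction genes 0 differed in MS2, against 4.17% of all probesets, and 5 were lower in MS5, against 2.44% called lower. They were Cldn1 (-0.48, 95% interval -0.89 to -0.07), Tjp3 or ZO-3 (-0.41, -0.72 to -0.10), Cldn3 (-0.39, -0.74 to -0.03), Marveld3 (-0.26, -0.48 to -0.05) and Cdh5 (-0.24, -0.44 to -0.05). Cdh5 is VE-cadherin, the adherens protein of endothelial contacts, whereas claudin 1, claudin 3, ZO-3 and Marveld3 are known from junctions of epithelia. Cldn1 was at 7.64 to 8.11 on controls, against 7.05 to 7.93 in MS2 and 6.74 to 7.73 in MS5. Cdh5 was at 9.48 to 9.82, 9.31 to 9.71 and 9.17 to 9.55. The part of the choroid plexus, an epithelium whose marker levels are given above, was not tested beyond the count with its level as a covariate.

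Of the 21 endothelial identity genes 4 were lower in MS5, against 2.44% of all probesets: Emcn (endomucin, -0.31, 95% interval -0.60 to -0.02), Cd34 (-0.18, -0.35 to -0.02), Cd93 (-0.15, -0.27 to -0.03) and Tie1 (-0.15, -0.25 to -0.04). In MS2 2 of 21 were lower, against 4.17% of all probesets called in either direction. These were the transcription factor Sox18 (-0.22, -0.38 to -0.07) and the membrane protein Itm2a (-0.13, -0.26 to 0.00). The median of the list was -0.03 in MS2 and -0.09 in MS5, and the largest of these changes was 0.31 (log2) in size. Levels of Tie1, a relative of Tek, were 9.62 to 9.93 on controls and 9.58 to 9.68 on MS5 arrays.

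Genes of signaling that builds and keeps the barrier were called lower in MS5 in 4 cases, against 2.44% of all probesets. Of 15 genes of VEGF and angiopoietin signaling, the apelin receptor Aplnr (-0.33, 95% interval -0.56 to -0.11) and the endothelial Notch receptor Notch4 (-0.11, -0.23 to 0.00) were lower in MS5. Of 12 genes of Wnt and Norrin signaling, which induces barrier properties in brain endothelium, the Norrin receptor Fzd4 (-0.28, -0.54 to -0.02) and the Wnt7 co-activator Reck (-0.12, -0.24 to 0.00) were lower. None of either list differed in MS2, against 4.17% of all probesets. Caveolae and markers of leaky or activated endothelium, a list of 8, had 0 calls in MS2 and in MS5, and Sele (E-selectin) was well above background on no array.

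Transporters other than the members differed at 3 genes in MS5 and at none in MS2, against 3.91% and 4.17% of all probesets. Among 6 further efflux pumps Abcc5 (MRP5) was higher, by 0.18 (95% interval 0.05 to 0.31), at 12.49 to 12.83 in MS5 against 12.44 to 12.55 in controls. Abcb1b, the other mouse gene for P-glycoprotein, chosen after its value was seen, differed by -0.12 (-0.36 to 0.13). Among 13 uptake carriers the organic anion carrier Slc22a8 (-0.25, -0.42 to -0.08) and the glutamine carrier Slc38a5 (-0.15, -0.27 to -0.03) were lower. Slc22a8 is also a choroid plexus carrier, and its MS5 arrays at 9.20 to 9.48 lay below its control arrays at 9.49 to 9.73. The MS5 arrays of Slc38a5, at 12.71 to 12.84, likewise lay below its control arrays at 12.88 to 13.05. Of all probesets 0.832% did not overlap between MS5 and Con. How many of the listed genes did so was not counted.

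Of 12 genes of pericytes and mural cells, the cells that wrap capillaries, Pdgfrb was lower in both groups, by 0.19 in MS2 and 0.21 in MS5 on the log2 scale (95% intervals -0.36 to -0.03 and -0.38 to -0.05). It was the 1 call of the list in each group, against 4.17% of all probesets in MS2 and 3.91% in MS5. The same shares apply to the other lists of this paragraph. Markers of microglia and astrocytes, 6 genes each, gave 0 calls against controls in either group. Of 6 blood markers 1 was lower in MS5 and 0 in MS2, and their summed level was 92900 to 266000 on control, 138000 to 194000 on MS2 and 90600 to 185000 on MS5 arrays. Of 8 meningeal markers 0 differed, with summed levels of 30100 to 72200, 47100 to 72100 and 33600 to 65200. Of the 6 markers of hippocampal neurons 0 differed, although MS2 replicate 4 lay far below the other arrays.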

How the data were processed

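Pooled bilateral hippocampi of 15 pups were profiled on 1-color Agilent mouse arrays. The scanner files hold an intensity for each spot, deposited by the authors from Agilent Feature Extraction 10.7.1.1 without normalization between arrays. The authors' series table holds log2 values after normexp background adjustment and quantile normalization. It agreed within 0.01 at all but 432 of 55681 probesets, where spots had been averaged here, 2 of the members' among them. The second series table, of miRs, was not used here.

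With R 4.3.3, limma 3.58.1 and version 1.17.8 of data.table, the mean signal of each spot was background-adjusted against its local median by normexp (offset 50). Quantile normalization ran over 62976 spots, 3671 of them controls that were then removed, and the log2 values of each probe's spots were averaged. Groups came from the sample labels. A single limma fit (lmFit, eBayes) held all 3 groups, with Benjamini-Hochberg adjustment over all probesets, and p without further mention are limma's unadjusted p. Exact permutation tests ran through every assignment of arrays to groups and were two-sided, with a smallest p of 0.00794 for 5 arrays against 5 and 0.000333 for 10 against 5. Correlations used 100000 permutations. The number of arrays limits the precision. The steps were tested on simulated data. Levels are not compared between probes.

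Every member probeset is named, and from the other lists each gene with an unadjusted p under 0.05 against Con, at most 5 per list and contrast. The members and lists were chosen with earlier results of these data known. Of 13 accessions on the array 12 matched RefSeq (GRCm38.p6) under the same symbol. Alternatives were normexp with offset 0, Feature Extraction's own processed signal (75th-percentile scaling), the authors' normalized values, array weights, the slide as a block and each slide alone, only the groups compared, a filter on background, other choices of probeset, and leaving out each array. The marker levels as covariates, the 4 arrays left out together, outlier spots left out, and the counts over related lists under alternatives were chosen after seeing the data.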

Additional observations from a re-analysis of the deposited data

Results flagged for a closer look

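On the second Flt1 probe, control replicate 19 lay at 6.30 (log2) and the nearest control array at 6.42, a gap of 0.86 of the range of the 5 controls. It stood out as an array far from the others of its group. Chance flags about 1 in 20 groups, and 39 groups of 5 arrays (13 probesets in 3 groups) were looked at. The first Flt1 probe read 12.34 on the same array, the highest of the controls.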

How the results depend on the processing

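Members called between MS2 and Con were 2 with array weights and 0 without the 4 arrays that stand apart, and 0 to 1 when each array was left out. Between MS5 and Con they were 1 with an offset of 0, with the slide as a block, on slide 2 alone, with the mean over probesets, with probesets named A_51 or A_52 and with the choroid plexus covariate, 0 on slide 1 alone and with the hypothalamus and thalamus covariate, and 1 to 2 leaving out each array. A count does not fix the gene: MS2 on slide 1 alone called Kdr instead of Ocln, and MS5 with the choroid plexus covariate called Slc2a1. Between MS5 and MS2 they were 1 with array weights, on slide 1 alone, with the choroid plexus covariate and without the 4 arrays, and 0 leaving out each array. For both treated groups against Con they were 2 with array weights, without the 4 arrays and with the choroid plexus covariate, 0 on slide 1 alone, and 1 to 2 leaving out each array. Related genes called in MS2 were 1 with an offset of 0, with only the groups compared and with the background filter, 6 with array weights and with the mean over probesets, 5 with the slide as a block, 10 on slide 2 alone, 4 without the 4 arrays, and 1 to 6 leaving out each array. In MS5 they were 8 with the processed signal, 5 on slide 2 alone, 9 with the choroid plexus covariate, and 10 to 19 leaving out each array. No share of all probesets is given for these other fits, so the counts describe stability only.

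The Kdr difference between MS5 and Con turned to -0.10 with the probeset named A_51, and no longer passed an unadjusted p under 0.05 with the slide as a block (0.20), with an offset of 0 (0.23), on slide 1 or 2 alone (0.16 and 0.22), with the mean over probesets (0.07), without the 4 arrays (0.18), or with the choroid plexus (0.22) or hypothalamus and thalamus covariate (0.13). The cause was not tested. Of the 345 member spots over all arrays 0 were marked as outliers by the scanner software. Each group had 5 arrays, and slides alone had 2 or 3 per group. No paired analysis was possible because the groups share no replicate numbers and no litter is named for the samples. Some pups were littermates, yet every test took each pup as independent.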

Other observations

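The genes whose probesets varied most like 2 of the members, among 25722 probesets well above background on every array, were found by Pearson's r over the 15 arrays. For Cldn5 they were Hdac7 (r = 0.84), Rnaseh2a (0.79), the unnamed probe A_55_P2108483 (0.78), Nrbp1 (0.77) and Olfr285 (0.76). For Abcb1a they were Spopl (0.90), Vps26b (0.89), Dnaja3 (0.88), Kctd3 (0.86) and D130043K22Rik (0.86). These r are the highest of many and are given as a description.

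Among 20 relations between members and marker levels, each within the larger cluster of arrays, 1 passed an adjusted p under 0.05. Flt1 on its first probe correlated with the hypothalamus and thalamus markers over the 11 arrays below 9 (log2) at r = 0.81 (permutation p = 0.00215, adjusted 0.043). Spearman rho was 0.78 (permutation p = 0.00645, adjusted 0.0645), and r was 0.59 without the 2 arrays farthest from the median. Within slides r was 0.56 over 7 arrays of slide 1 and 0.81 over only 4 arrays of slide 2. The relation was looked for after the data were seen. It leaves out the 4 arrays with higher marker levels, MS2 replicate 4 and MS5 replicates 8, 12 and 14. On those Flt1 was at 12.30, 12.31, 12.17 and 12.18, within the control range of 12.10 to 12.34. The relation therefore describes the 11 arrays alone.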
